A study of Mus musculus with 2 samples.

Results

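The proteins of the cytosolic ribosome are encoded by single-copy genes scattered over the genome, and their promoters were followed here in a map of open chromatin. A gene was a member when GENCODE M21 lists it as protein-coding and its whole symbol is Rpl or Rps with a number, with or without a closing a, x or l, or is Rplp0, Rplp1, Rplp2 or Rpsa. This rule gave 80 of the 21755 protein-coding genes on chromosomes 1 to 19 and X, and it used no measured value. Of the 80, 31 encode small-subunit and 49 large-subunit proteins, and they lie on 19 chromosomes, 4 of them on the X.

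DNase-seq, which maps open chromatin by where the nuclease DNase I can cut, had been done on 2 libraries of adrenal gland, labelled as biological replicates 1 and 2 of 1 group. The labels name no treatment; the mice were females of strain B6CASTF1/J at an age of 4 days, a first-generation hybrid of C57BL/6J and CAST/EiJ mice. The alleles were not separated, and positions are on the C57BL/6J reference. The sample descriptions mention 3 females for each sample but give both samples 1 donor identifier, so the spread between the libraries may be technical. With 1 group there was no contrast to test, values are given for replicate 1 and then replicate 2, and figures for other genes are printed beside them as a description with no test.

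Each library came with a longer and a stricter list of peaks, which are regions with an excess of cuts, and with a list of footprints, which are short stretches protected from cutting inside open regions. The longer lists held 46031 and 87387 peaks, the stricter ones 27765 and 50406, and the footprint lists 98364 and 141983 entries. Each peak carries the authors' own signal value, with a scaling that the files and labels do not state; nor do they state the read depth. Among defining genes of the cortex, which makes steroids, 4 of 9 had a promoter peak in both libraries (Nr5a1, Cyp11a1, Scarb1 and Mrap), as did 4 of 8 of the catecholamine-making medulla, 2 of 5 of endothelium, 1 of 4 each of leukocytes and kidney and none of 3 each of erythroid cells and liver. The share over all protein-coding genes was 61.3%. At the medulla gene with the highest signal, a TSS of another protein-coding gene lies within 1 kb. The peak there cannot be assigned to the medulla gene alone. In the stricter lists the counts were 2 for cortex, 3 for medulla, 2 for endothelium and 0 for the other cell types. Promoter peaks were missing in both libraries at Cyp11b1, Hsd3b1, Mc2r, Th, Dbh and Pnmt, so several defining genes of both parts of the gland were without one. In whole tissue, a smaller share of cells with an open site and a less open site in every cell cannot be told apart.

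Every growing cell needs ribosomal proteins in matched amounts, and the corresponding mRNAs are among the most abundant of the cell. Their transcripts typically begin at a cytidine inside a run of pyrimidines, the terminal oligopyrimidine tract, through which the mTOR pathway sets their translation. The promoters are compact, often without a canonical TATA box, and the genome also holds many processed pseudogenes copied from these mRNAs. A handful of paralogues, such as Rpl3l in striated muscle and Rpl10l and Rpl39l in the male germ line, are known for use in few tissues.

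The sequences that follow are the promoters on which the results on footprints, strings and closed members turn. Each runs 5′ to 3′ from 100 bases before the annotated start site (TSS) through the first 25 bases from it on, in the direction of transcription, as the GRCm38 (mm10) reference genome has it. Capitals mark bases that lay inside footprints of both libraries. The first set holds 6 of the members in which the string TCTCGCGA, the core of an element bound by the factor BANP, lay within this window and under a footprint of each library.
Rpl7a (chr2:26910664-26910788, plus strand): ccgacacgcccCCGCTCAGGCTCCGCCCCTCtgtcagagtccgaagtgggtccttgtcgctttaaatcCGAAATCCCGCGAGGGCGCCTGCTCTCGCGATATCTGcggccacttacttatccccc
Rpl10a (chr17:28328468-28328592, plus strand): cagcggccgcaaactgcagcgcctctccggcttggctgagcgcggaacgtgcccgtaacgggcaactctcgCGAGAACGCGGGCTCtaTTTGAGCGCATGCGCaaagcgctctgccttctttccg
Rpl26 (chr11:68901483-68901607, plus strand): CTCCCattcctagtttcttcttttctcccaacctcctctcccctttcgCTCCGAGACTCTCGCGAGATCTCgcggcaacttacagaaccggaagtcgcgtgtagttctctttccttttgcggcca
Rps28 (chr17:33824538-33824662, minus strand): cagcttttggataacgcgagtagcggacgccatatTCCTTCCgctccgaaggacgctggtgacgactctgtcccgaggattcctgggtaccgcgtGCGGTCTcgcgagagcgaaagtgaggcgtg
Rps6 (chr4:86857388-86857512, minus strand): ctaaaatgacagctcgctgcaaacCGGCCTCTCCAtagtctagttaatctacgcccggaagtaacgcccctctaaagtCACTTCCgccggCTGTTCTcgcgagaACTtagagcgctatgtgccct
Rps15a (chr7:118116164-118116288, minus strand): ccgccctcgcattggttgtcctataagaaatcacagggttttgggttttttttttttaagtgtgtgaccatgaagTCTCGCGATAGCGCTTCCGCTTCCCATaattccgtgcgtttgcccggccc
The string starts 9 bases before the TSS in Rpl7a, 43 in Rpl26, 6 in Rps6 and 25 in Rps15a. The whole string is in capitals in Rpl7a, Rpl26 and Rps15a, and a part of it in the other 3.

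The second set holds 3 of the 4 members in which TGACGTCA, the cAMP response element to which CREB and ATF factors bind, lay under a footprint of both libraries.
Rpl27a (chr7:109519047-109519171, plus strand): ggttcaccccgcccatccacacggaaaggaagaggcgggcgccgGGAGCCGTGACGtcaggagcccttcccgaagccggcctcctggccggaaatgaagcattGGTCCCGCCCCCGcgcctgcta
Rps29 (chr12:69159162-69159286, minus strand): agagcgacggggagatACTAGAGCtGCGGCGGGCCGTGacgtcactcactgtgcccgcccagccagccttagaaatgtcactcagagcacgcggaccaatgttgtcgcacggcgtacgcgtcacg
Rps9 (chr7:3703893-3704017, plus strand): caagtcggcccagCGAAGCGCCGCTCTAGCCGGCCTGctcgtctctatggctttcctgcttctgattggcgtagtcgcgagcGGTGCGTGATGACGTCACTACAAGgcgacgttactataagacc
The string starts 49 bases before the TSS in Rpl27a and 64 in Rps29, where it is in capitals in part. It starts 9 bases before in Rps9, where the whole string is in capitals.

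The third set sets 1 strong promoter, Rplp0, beside the open members Rpl6 and Rps4x, which had the lowest mean signal, and the 3 members without a promoter peak, Rpl3l, Rpl39l and Rpl10l.
Rplp0 (chr5:115559367-115559491, plus strand): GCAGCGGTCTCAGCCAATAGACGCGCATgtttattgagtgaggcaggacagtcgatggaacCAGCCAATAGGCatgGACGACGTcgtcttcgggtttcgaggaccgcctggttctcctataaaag
Rpl6 (chr5:121204381-121204505, plus strand): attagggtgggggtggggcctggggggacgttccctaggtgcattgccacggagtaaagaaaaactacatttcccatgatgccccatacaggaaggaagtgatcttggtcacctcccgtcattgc
Rps4x (chrX:102189370-102189494, minus strand): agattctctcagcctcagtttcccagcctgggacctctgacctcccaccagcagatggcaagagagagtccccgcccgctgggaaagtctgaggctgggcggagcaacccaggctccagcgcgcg
Rpl3l (chr17:24727720-24727844, plus strand): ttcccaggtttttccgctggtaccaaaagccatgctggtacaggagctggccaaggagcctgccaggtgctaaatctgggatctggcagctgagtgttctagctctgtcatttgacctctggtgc
Rpl39l (chr16:10170128-10170252, plus strand): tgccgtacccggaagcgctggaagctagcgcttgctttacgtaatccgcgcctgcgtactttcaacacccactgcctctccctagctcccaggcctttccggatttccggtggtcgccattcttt
Rpl10l (chr12:66284377-66284501, minus strand): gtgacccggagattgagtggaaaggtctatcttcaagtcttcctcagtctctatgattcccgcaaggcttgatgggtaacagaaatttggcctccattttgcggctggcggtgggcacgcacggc
Rplp0 holds CCAAT on the plus strand 87 and 36 bases before the TSS, both in capitals. It also holds TATAAA 17 bases after the annotated TSS, which footprints of each library touched at different bases. The other 5 windows hold no base that was footprinted in both libraries.

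A promoter counted as open when a peak of the longer list overlapped the 1 kb to either side of any annotated TSS in both libraries. By this measure 77 of 80 ribosomal protein genes (96.2%) were open, beside 61.3% of all protein-coding genes. All 31 small-subunit genes and 46 of 49 large-subunit genes were among them, and each library alone gave 77. In the stricter lists 75 members were open in both libraries, beside 54.8% of all genes. The 2 that dropped out there were Rpl10 and Rpl6, which had no stricter peak in replicate 1.

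The strongest promoter peak of an open member carried a median signal of 2.72 in replicate 1 and 5.77 in replicate 2, beside 2.10 and 4.32 for the other 13269 open genes. The members spanned 0.972 to 5.30 in the first library and 1.72 to 12.2 in the second. All 77 were higher in replicate 2, by a median ratio of 2.10, beside 2.05 for other open genes. Ranked by signal among all 21755 genes, the 80 members had a median percentile of 79.8 and 80.1. In both libraries 50 open members lay above the median of other open genes and 14 below it.

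**Figure D1:**
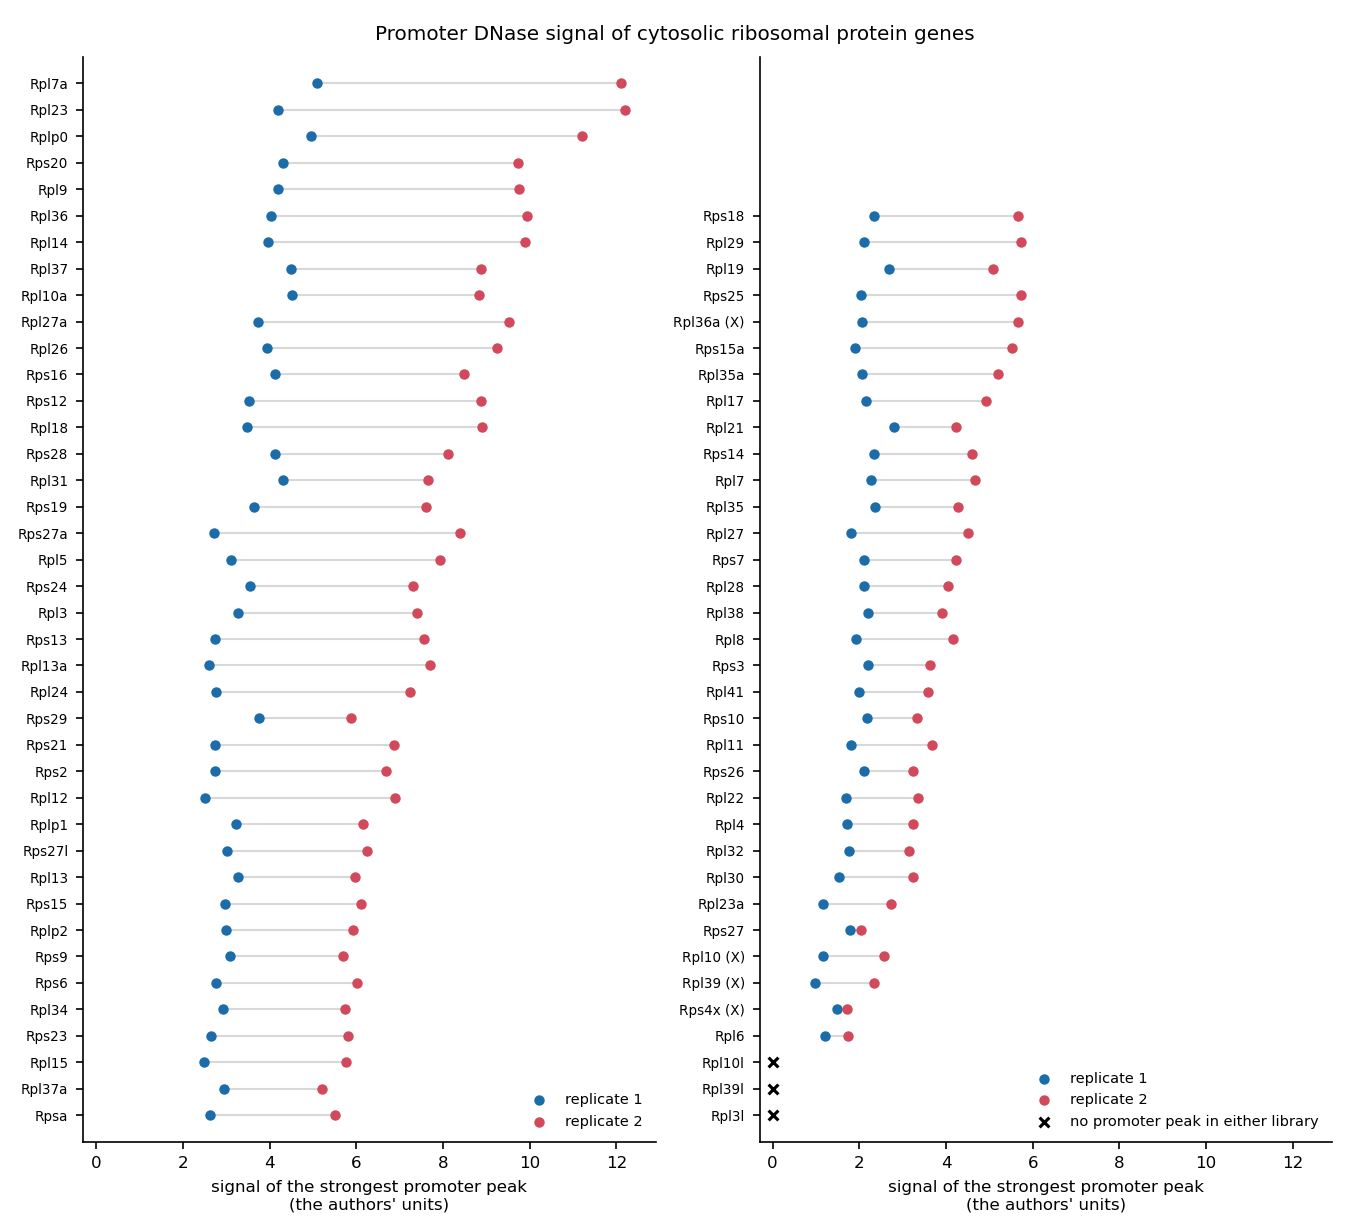
Signal of the strongest promoter peak (horizontal axis, the authors' units) for 75 of the 80 genes, ordered by mean signal, in replicate 1 (blue) and replicate 2 (red), with crosses for genes without a promoter peak. Replicate 2 is higher at all 72 open genes shown, and the 3 closed genes stand at the bottom right.

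At the top of the ranking, 19 of 80 members were in the top 10% by signal in both libraries, beside 7.58% of all genes, and 44 were in the top 25% in both, beside 21.8%. Only 8 were among the first 1000 genes in both libraries, among them Rpl7a, Rpl23, Rplp0, Rps20, Rpl9, Rpl36 and Rpl14. When the genes open in both libraries were cut into 10 bins of about 1335 genes, where an even spread would put 7.7 members in each, the highest bin held 17 and 14 members and the lowest held 0 and 0.

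**Figure D2:**
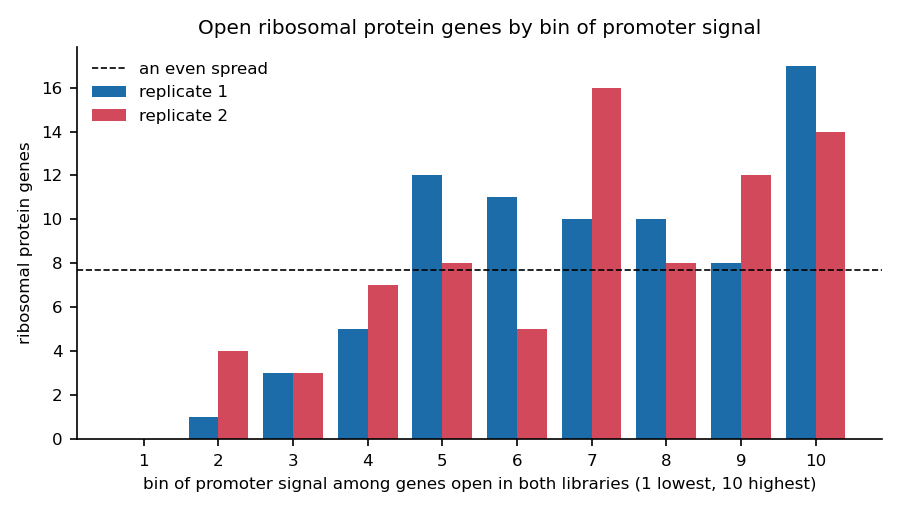
Number of open ribosomal protein genes (vertical axis) in each of 10 bins of promoter signal among the genes open in both libraries (horizontal axis, 10 is highest), in replicate 1 (blue) and replicate 2 (red). The dashed line marks 7.7, an even spread, and the highest bin holds 17 and 14 members.

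Rpl7a, a large-subunit protein that also hosts 3 small nucleolar RNA genes in its introns, had the highest mean signal of the 80, with 5.09 and 12.1 at ranks 142 and 187 of all genes. Rpl23 led replicate 2 with 12.2, at rank 175, after 4.20 in replicate 1, at rank 654. The order of the leading genes thus changed between the libraries. Rps20 reached 4.32 and 9.72, Rpl9 4.20 and 9.76, Rpl36 4.03 and 9.93, and Rpl14 3.97 and 9.88. Rpl37 and Rpl10a closed the first 10 with 4.50 and 8.88, and 4.51 and 8.83. Across the 77 open members the rank coefficient (Spearman) of the signal between libraries was 0.904, and the 77 points share both libraries and their depths.

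At the low end stood Rpl6 with 1.20 and 1.74, Rps4x with 1.48 and 1.72, Rpl39 with 0.972 and 2.33, and Rpl10 with 1.16 and 2.56. Rps27a had the highest ratio, 3.08, from 2.72 to 8.39. Rps27 was nearly level, at 1.78 and 2.04. Rps27, Rps4x and Rpl6 stood at ranks 7992, 9194 and 10323 in replicate 1 and further down, at 10823, 11444 and 11399, in replicate 2.

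Members were grouped by their place in the ribosome. The stalk, which recruits the GTP-binding translation factors, is built on Rplp0, Rplp1, Rplp2 and Rpl12. All 4 were in the top 25% of genes in both libraries, and the group's median signal was 3.11 and 6.52. Rplp0, the base of the stalk, had 4.95 and 11.2, while Rplp1 had 3.22 and 6.16, Rplp2 had 2.99 and 5.92 and Rpl12 had 2.52 and 6.89. The 3 lie close together and below Rplp0 in both libraries.

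The 2 proteins that form a particle with 5S RNA and hold back MDM2 when ribosome assembly is disturbed differed from each other: Rpl5 had 3.12 and 7.94 and Rpl11 had 1.80 and 3.68. Around the exit tunnel, through which the new protein leaves, the median was 1.94 and 4.07 over 6 genes. Within that group Rpl31 had 4.32 and 7.66, Rpl19 had 2.68 and 5.08, and Rpl17 had 2.16 and 4.92. Rpl4 was at 1.72 and 3.23, Rpl23a at 1.16 and 2.73 and Rpl39 at 0.972 and 2.33. All 3 were under the median of other open genes in both libraries. The strongest peak of Rpl4 was centred at -464.5 bp from its TSS in both libraries. A TSS of Zwilch lies within 1 kb of that of Rpl4, so this peak cannot be assigned to Rpl4 alone.

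Along the decoding centre and the path of the mRNA in the small subunit, 6 genes had a median of 2.85 and 5.97. Rps9 had 3.10 and 5.69, and Rps15 2.97 and 6.12. Rps2 followed with 2.74 and 6.69, Rps23 with 2.64 and 5.82, and Rps3 with 2.20 and 3.62. Rps6, the protein phosphorylated downstream of mTOR, had 2.76 and 6.02. Rpsa, also known as the laminin receptor, had 2.63 and 5.51. Rps27a, which is made as a fusion with ubiquitin, had 2.72 and 8.39. All 31 small-subunit genes together had a median of 2.75 and 6.02 and the 46 open large-subunit genes 2.56 and 5.70, with overlapping ranges.

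The 4 X-linked members had a median signal of 1.32 and 2.45, beside 2.75 and 5.88 for the 73 autosomal open members. Other open genes showed the same order, with 1.09 and 2.09 for 405 genes on the X and 2.15 and 4.42 for 12864 on autosomes. Rpl10, Rpl39 and Rps4x were under the median of other open genes in both libraries, and Rpl36a was at 2.06 and 5.66.

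For comparison, 6 of 6 ribosomal proteins whose symbols fall outside the rule were open, among them Fau, Rack1, Rpl22l1, Rpl7l1 and Rpl36al, with a median of 3.87 and 7.24. Of 15 translation factors and other genes known for mRNAs with a pyrimidine tract, 15 were open, with a median of 3.37 and 6.63. Among them Eef2, the elongation factor that moves the ribosome along, had 4.74 and 10.8, and Pabpc1, which binds poly(A) tails, had 4.78 and 11.2. Of 15 ribosome assembly genes 15 were open, at 2.30 and 5.72, and of 78 genes of the mitochondrial ribosome 78 were open, at 2.36 and 5.26. Values of the members overlapped those of each of these groups.

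**Figure D3:**
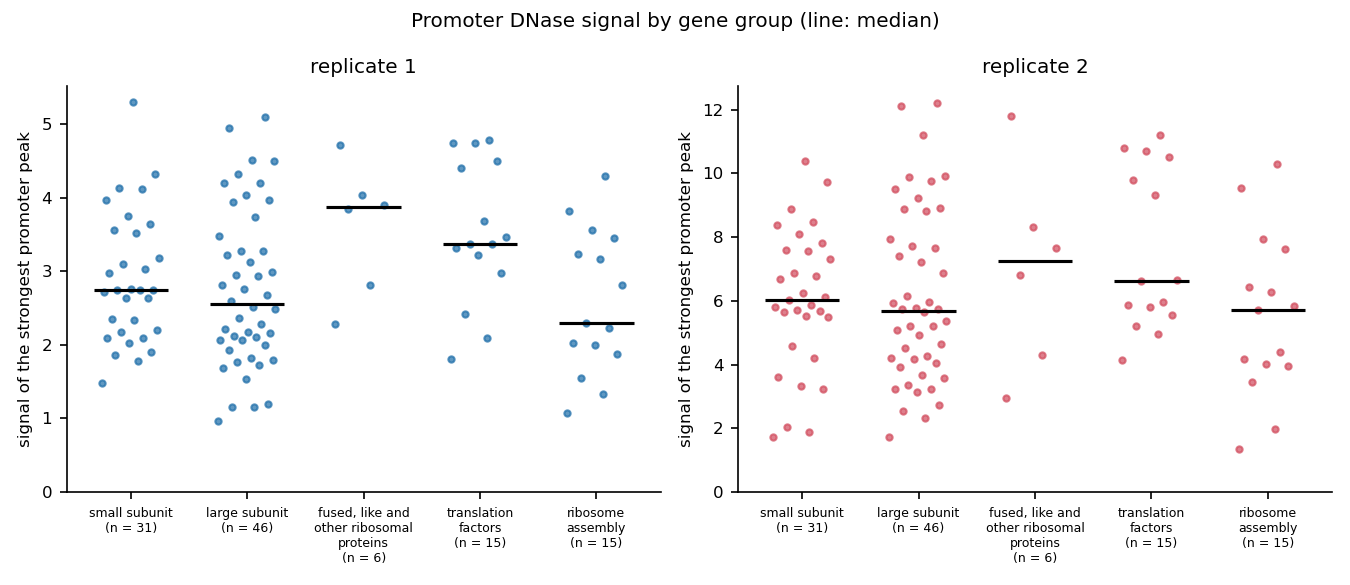
Signal of the strongest promoter peak (vertical axis, the authors' units) for open small- and large-subunit genes, other ribosomal proteins, translation factors and ribosome assembly genes, in replicate 1 (left) and replicate 2 (right). Points are genes and lines are medians, which run from 2.30 to 3.87 on the left and from 5.70 to 7.24 on the right.

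The 3 closed members are all paralogues of an open one. Rpl3l, Rpl39l and Rpl10l had no peak within 1 kb of any annotated TSS in either library. Within 1 kb of the reference TSS they had 0 footprints and 0 bases with a false discovery rate listed below 0.05. Footprints and rates at their other annotated TSSs were not examined. Rpl3, the classical partner of Rpl3l, had 3.28 and 7.41, Rpl39 had 0.972 and 2.33, and Rpl10 had 1.16 and 2.56. The promoter of Rpl3l, taken as 250 bases before to 50 after the TSS, holds 2 CpG, that of Rpl10l 13 and that of Rpl39l 17. Rpl39l thus had more CpG than its open partner Rpl39, which holds 7. The other pairs went the other way, with 21 in Rpl3 and 18 in Rpl10. Rpl3l lies 5890 bp past the end of Rps2 on chromosome 17, whose promoter was open at 2.74 and 6.69.

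Other paralogues were open, and 3 of them had a higher signal than the gene they resemble. Rpl22l1 had 3.85 and 11.8 beside 1.69 and 3.36 for Rpl22, a protein of the large subunit. Rps27l had 3.03 and 6.24 beside 1.78 and 2.04 for Rps27. Rpl36al had 4.71 and 8.33 beside 2.06 and 5.66 for X-linked Rpl36a. Each of these held in both libraries. A TSS of Mgat2 lies within 1 kb of that of Rpl36al, so the peak there cannot be assigned to Rpl36al alone. Rpl7l1 and Rpl7 were not ordered alike, with 2.81 and 4.30 for the first and 2.28 and 4.66 for the second.

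The median width of the peaks at these promoters was 260 and 220 bp, beside 240 and 220 bp for other open genes. Peaks of 400 bp or more in both libraries were found at 0 of 80 members, beside 2.06% of all genes, a share too small for a count over 80 genes to tell apart from it. The widest, Rps25 at 700 bp in replicate 1, was 200 bp wide in replicate 2. The strongest peaks of the 2 libraries overlapped at 74 of 77 members (96.1%), close to the 93.0% of other open genes, and 29 members (37.7%) had 2 or more peaks in both libraries, beside 49.1% of other open genes. In the gene body, over 1 kb from every TSS, Rpl26, Rpl3 and Rpl22 had a peak in both libraries.

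The centre of the nearest peak lay at a median of 0.5 bp downstream of the TSS in replicate 1 and 9.5 bp upstream in replicate 2, beside 18.5 and 27.5 bp upstream for other open genes. At 57 of 77 open members (74.0%) the TSS itself was under a peak in both libraries, beside 61.9%. In the plot of coverage around the TSS the share of members under a peak reached 83.1% and 80.5%, beside 70.7% and 71.1%. Of the peak limits 54.4% and 58.8% of peaks sit on a grid of 20 bp, so single offsets are known to about that step. At 8 members the strongest peak was over 300 bp from the reference TSS in at least 1 library, the farthest being Rpl18, whose strongest peak was 2623.5 and 2583.5 bp downstream at another annotated TSS.

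**Figure D4:**
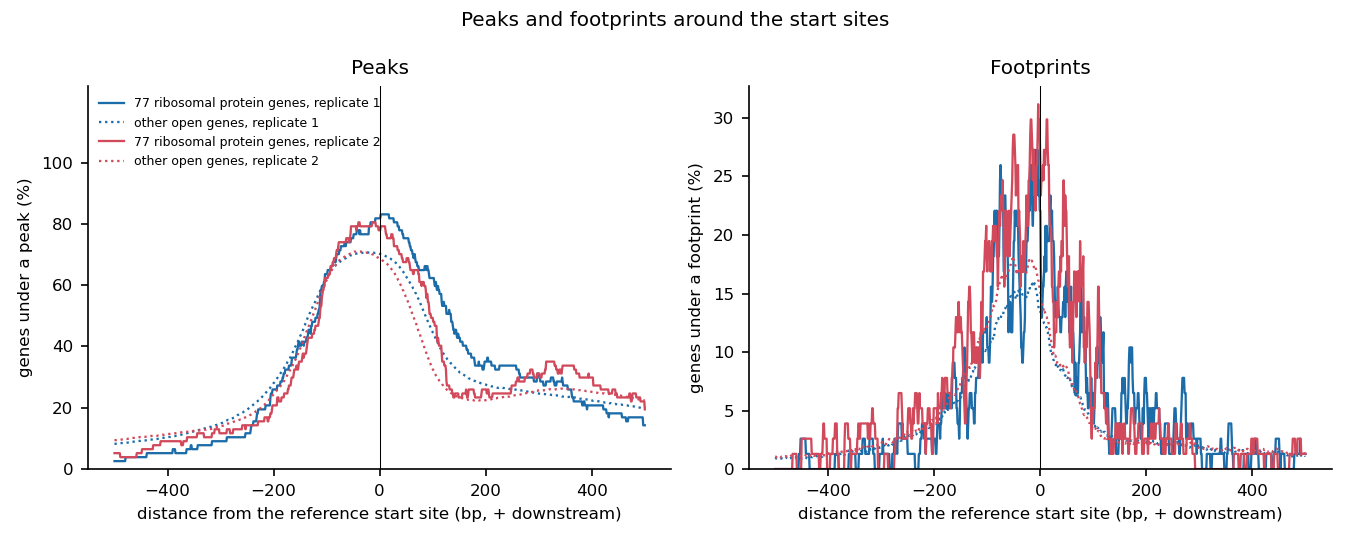
Share of genes (vertical axis, percent) under a peak (left) or a footprint (right) at each distance from the reference start site (horizontal axis, bp), for the 77 open ribosomal protein genes (solid) and other open genes (dotted) in both replicates. Near the start site the solid lines rise above the dotted ones, with footprint maxima of 27.3% and 31.2% beside 15.9% and 18.0%.

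Annotated starts of these genes are themselves uncertain. RefSeq has a start for 57 of the open members, and it lay within 10 bp of the GENCODE start at 20 of them (35.1%), beside 48.8% of other open genes. It was further downstream than that at 31 and further upstream at 6, and the median distance was 29 bp, beside 12 bp. A run of 8 or more pyrimidines lay between 10 bases before and 15 from the GENCODE start in 22 of 77 open members (28.6%), beside 8.69% of other open genes. Around the RefSeq start 19 of the 57 (33.3%) held such a run, beside 9.11% of other open genes with an entry. Around the GENCODE start of the same genes 14 did (24.6%), beside 8.60%. Of the 57, only Rpl19 and Rps27 held such a run around both starts, so which members held one depended on the annotation. The longest runs around the GENCODE start were those of Rps24 and Rpl32, 17 bases, and Rpl22 and Rpl4 had 14. Around the RefSeq start Rps24 had 4, Rpl22 had 3 and Rpl4 had 6, and the longest run was 19, in Rpl27a.

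Footprints were dense at these starts. Within 100 bp of the TSS, 66 of 80 members had a footprint in both libraries, beside 41.4% of all genes. Among open genes that was 85.7% of members and 67.3% of others. The median number within 100 bp was 3 and 3 at open members, beside 2 and 2, and within 1 kb it was 5 and 5, beside 4 and 4. In total the members held 373 and 414 footprints within 1 kb, with a median width of 9 and 10 bp. Their median distance from the TSS, without sign, was 90 and 92.8 bp, beside 123 and 126 bp at other open genes. At a single base between 50 and 99 bp downstream, an average of 10.1% and 13.2% of open members were under a footprint. The same average over other open genes was 6.01% and 5.80%. The share of members with a footprint anywhere in that stretch is larger than this average.

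Single promoters differed widely in this. Rpl5 had 7 and 5 footprints within 100 bp, Rpl37a 7 and 3, Rps6 6 and 6, and Rpl10a 4 and 6. Strength of signal and number of footprints went together only loosely, with rank coefficients of 0.303 and 0.260 over the 77 members, beside 0.377 and 0.344 over other open genes. The points of a library share its depth.

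**Figure D5:**
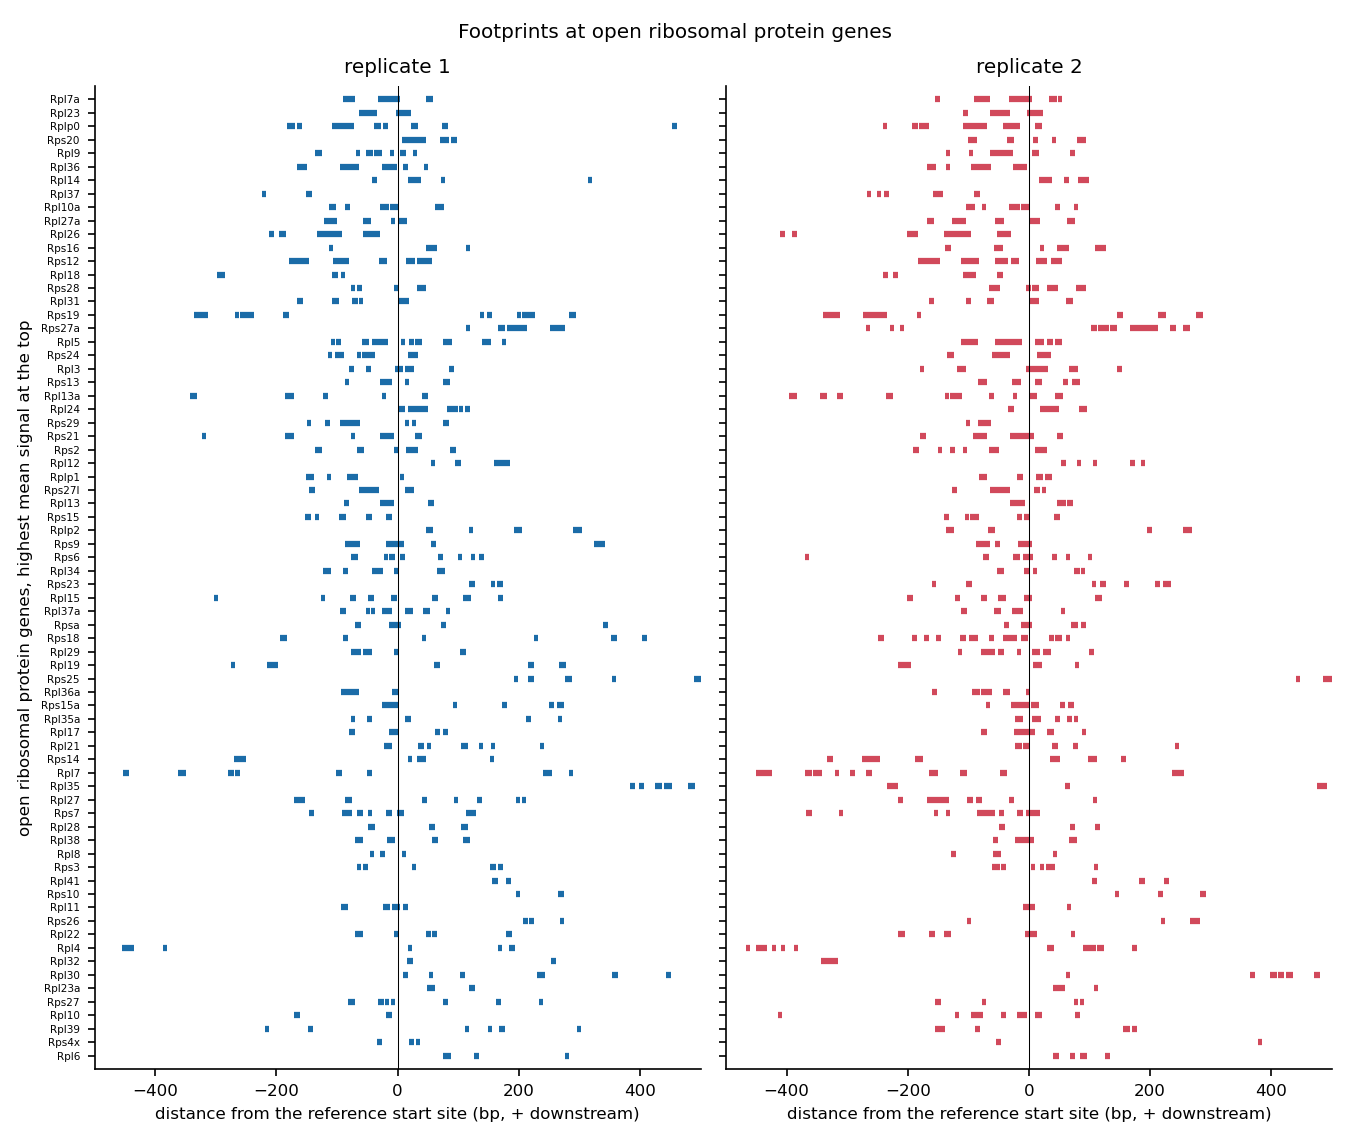
Footprints (bars, drawn to width) at 72 of the 77 open ribosomal protein genes, ordered by mean signal from top to bottom, against the distance from the reference start site (horizontal axis, bp) in replicate 1 (left) and replicate 2 (right). Most bars fall within 100 bp of the start, and at Rps19, Rps27a, Rps25, Rps10 and Rpl41 none does in either library.

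No footprint lay within 100 bp of the TSS in 1 or both libraries at 11 open members. At Rps19, Rps27a, Rps25, Rps10 and Rpl41 this held in both libraries. The start used here is the GENCODE one, and that of RefSeq lies 221 bp further downstream at Rps19, 575 at Rps25, 301 at Rps10 and 137 at Rpl41. All 4 had a footprint of each library centred within 100 bp of the RefSeq start. Members with a footprint near the GENCODE start were not checked in this way, so the count could only rise. Measured from the GENCODE start, the nearest footprint was 139 and 150 bp downstream at Rps19, 116 and 107 bp downstream at Rps27a, and 161 and 108 bp downstream at Rpl41. Rps19, mutated in Diamond-Blackfan anaemia, had a signal of 3.64 and 7.61, so it was not among the weak promoters. These values come from peaks that do not overlap, centred at 219.5 bp from the TSS in replicate 1 and -280.5 bp in replicate 2. The other 6 were Rpl37, Rps23, Rpl35, Rps26, Rpl32 and Rpl39, with a footprint that close in 1 library only.

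Short strings known from promoters were searched on both strands in the 300 bases from 250 before to 50 after the TSS. TCTCGCGA was in 13 of 77 open members (16.9%), beside 1.39% of all genes and 2.02% of other open genes. In 9 of the 13 a footprint covered part of it in each library (69.2%), beside 54.5% and 53.4% of the other open genes that hold it. Rpl17 is among them beside those printed. Members with the string had a median signal of 3.64 and 7.61, and the 64 without it 2.64 and 5.72, with overlapping ranges.

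TGACGTCA was in 5 open members (6.49%), beside 2.52% of all genes and 3.36% of other open genes. A footprint of each library touched it in 4 of the 5, the 3 printed and Rpl13, beside 69.7% and 75.1% of other open genes with the string. TATAAA was in 9 open members (11.7%), beside 12.6% of all genes and 6.88% of other open genes. A footprint touched it in both libraries in 6 of the 9 (66.7%), among them Rpl3, Rplp0, Rps2, Rps20 and Rps28, beside 10.3% and 10.5% of other open genes with the string. The matches had a median position 10 bases after the annotated TSS, whereas a classical TATA box lies before the start.

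CCGGAAG, the core bound by ETS factors such as GABPA, was in 24 open members (31.2%), beside 11.3% of all genes and 16.6% of other open genes. A footprint touched it in 11 and 9 of the 24 (45.8% and 37.5%), beside 35.1% and 36.1% of other open genes with the string. The median signal was 2.68 and 5.85 in members with the string and 2.72 and 5.75 in the 53 without. ACTACAA, known from ZNF143 sites, was in 10 open members (13.0%), beside 3.80% of all genes and 4.02% of other open genes. AAGATGGC and ATGGCGGC, which share letters of 1 longer YY1 site, were in 5 and 7 open members (6.49% and 9.09%). The shares were 3.10% and 2.75% of all genes, and 4.37% and 4.23% of other open genes. CTTTCC, which resembles the pyrimidine start itself, was in 32 (41.6%), beside 26.3% of all genes and 25.4% of other open genes. Its matches in open members, on either strand, had a median position of -73 bases from the TSS and ran from -228 to 41. Most were thus not at the start.

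GGGCGG, the core of the GC box bound by SP1, was in 40 open members (51.9%), beside 45.7% of all genes and 64.5% of other open genes. CCAAT, bound by NF-Y, was in 25 (32.5%), beside 38.5% of all genes and 37.9% of other open genes. CACGTG, the E-box bound by MYC and USF, was in 9 (11.7%), beside 7.78% and 9.93%. GCATGCGC, bound by NRF1, was in 4 (5.19%), beside 3.43% and 5.06%, and the E2F string TTTCGCGC was in 1, beside 0.359% and 0.535%. The shares of CACGTG and GCATGCGC were thus near those of other open genes. A match of one string can overlap a match of another, and a string that is missing says only that these letters were not in the window.

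Base composition set the members a little apart. The promoter had a median GC content of 55.7% beside 61.0% in other open genes, the same median of 20 CpG, and a ratio of observed to expected CpG of 0.854 beside 0.758. Among the 77 members signal went with CpG number, with rank coefficients of 0.570 and 0.513, beside 0.337 and 0.271 over other open genes. It also went with GC content, at 0.514 and 0.572, beside 0.208 and 0.154. The points share the libraries, and the sequence preference of DNase I was not tested.

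At 14 open members (18.2%) a TSS of another protein-coding gene lay within 1 kb, beside 18.6% of other open genes. In 11 (14.3%), beside 14.2% of other open genes, the other gene starts upstream on the opposite strand, as with Rpl7a and Med22, Rps18 and Vps52, Rpl9 and Lias, or Rps28 and Ndufa7. A peak there cannot be assigned to 1 of the pair. The 14 had a median of 2.43 and 5.74 and the 63 without such a partner 2.75 and 5.82. Small nucleolar RNA genes, 56 in all, lie inside 29 of the members on the same strand. Those 29 had a median signal of 2.74 and 5.96, and the 48 open members without such a gene 2.70 and 5.74.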

How the data were processed

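The values used were made by the authors. The deposited peak lists give 1 signal value per peak, called per library on assembly mm10 per the file headers. Not given in the sources used here are its scaling, the read depth and the tools. The authors' false discovery rates, a kind of adjusted p-value for cutting at each base, are listed below 0.05 only, and the deposited footprints carry 0.01, taken as a p-value threshold, in each entry. Depth being unknown, no counting error was computed.

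Positions were set against GRCm38.p6 and GENCODE M21, and starts and names were compared with RefSeq. The reference TSS of a gene is that of its best APPRIS transcript, then of the best transcript support level, then the most upstream one. The signal of a gene is that of its strongest promoter peak, and ranks run over all 21755 genes. An overlap is at least 1 bp. Named are all closed members, the 10 highest and 5 lowest open ones by mean signal, those of the role groups, and paralogues, apart from a few genes that are not reported here by name; other members are named where a count is small and were chosen after their values were seen. The members and lists were chosen with earlier results of these data known. Of 13 strings, matches on both strands were counted. The steps were run in Python 3.11.15 with numpy 2.4.6, pandas 2.3.3 and pysam 0.24.0, plotted with matplotlib 3.10.9, and tested on simulated data. Alternatives were other peak lists, windows, start sites and ways of ranking, and leaving out each library.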

Additional observations from a re-analysis of the deposited data

How the results depend on the processing

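The count of open members, 77, was 77 again within 500 bp, within 2.5 kb, at the reference TSS alone and with replicate 2 reduced to as many peaks as replicate 1. The count fell to 75 in the stricter lists, to 72 where peaks of both libraries had to overlap by 50% of both, and to 63 without peaks near another gene. Leaving out 1 library gave 77 to 77. The median rank percentile, 79.9 as the mean of the libraries, was 80.4 within 500 bp, 81.3 at the reference TSS alone, 82.0 by the nearest peak and 67.2 when peak width was ranked; leaving out 1 library gave 79.8 to 80.1. The median peak position, -4.5 bp as the mean of the libraries, was 4.5 bp in the stricter lists and -9.5 to 0.5 bp when 1 library was left out, so its sign is not settled. Members with a footprint near the TSS, 66, ranged from 58 within 50 bp, or with overlapping footprints, to 75 at any TSS. Without footprints outside peaks the count was 61, and it was 67 to 71 when 1 library was left out. The shares of all genes at these settings were not computed, and a gene with more annotated starts has more places for a footprint at any TSS. Members with any string went from 71 to 67 in the window from 100 bases before, where CACGTG fell from 9 to 3, CTTTCC from 34 to 22 and GCATGCGC from 4 to 2. The RefSeq starts were an alternative chosen after seeing the data. No paired analysis was possible because there is 1 group. Read depth is unknown, so how far it limits weak peaks and footprints was not tested.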

Other observations

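Pseudogenes carry the names of 55 of these genes 287 times in GENCODE M21. They were taken by name and by being listed as a pseudogene. Processed ones are reinserted copies of mRNAs without the parent promoter, but the 287 were not limited to that type. Of the 287, 4 (1.39%) had a peak within 1 kb of their annotated start in both libraries. No share over other pseudogenes was set beside this. Away from the TSS of any other gene stood 264, of which 3 (1.14%) had such a peak. These were Rpl38-ps1 with a signal of 1.54 and 5.91, Rpl5-ps2 with 1.16 and 4.02, and Rpl34-ps1 with 1.09 and 3.92. None of the 3 had a peak within 100 bp of the start in both libraries. Not given in the sources used here is how reads that fit both a parent gene and its copies were placed.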
